A study of Mus musculus with 35 samples.

Results

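Bulk pancreatic tumor tissue was compared with monocytic myeloid-derived suppressor cells (M-MDSC) sorted from the same kind of tumor, both from mice that received no poly(I:C). The libraries were chosen by their labels alone: 4 of bulk tumor and 4 of tumor M-MDSC, together 8 of the 35 in the series. All tumors came from T110299, a single cell line derived from a genetically engineered pancreatic cancer mouse that carried Ptf1a-Cre and LSL-Trp53fl/R172H among its alleles and implanted into the pancreas of C57BL/6 mice, female according to the methods. These mice are labelled untreated, and the treatment protocol in the labels names glucose, given at day 18 and day 20, as the control for poly(I:C). According to the labels, bulk tumor was lysed directly, whereas for M-MDSC the tumor was dissociated, enriched for CD11b+ cells and sorted as CD11b+ Ly6C-high Ly6G- cells. Tissue of origin of the RNA and handling therefore changed together between the groups and cannot be told apart.

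A pancreatic tumor of this kind holds epithelial cancer cells, fibroblasts that lay down collagen, vessels and infiltrating leukocytes. M-MDSC are monocyte-like cells that leave the bone marrow, enter the tumor along chemokines such as CCL2 and restrain T cells, among other ways through prostaglandins and cytokines. Bulk tumor sums the RNA of all these cells. A gene that is lower in bulk tumor than in M-MDSC can be so because its cells are few or because they hold less RNA. It can also be so because the M-MDSC were handled differently, and in these samples these cannot be told apart.

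Bulk tumor libraries 41, 42, 45 and 46 held 3771590 to 8886115 counts and M-MDSC libraries 4, 8, 20 and 24 held 793070 to 3604818 counts. Libraries are named by the running number of their column, since the columns carry no replicate number. Values are CPM, counts relative to the library size after TMM scaling, listed in this order of libraries, and 3 counts in a library corresponded to 0.31 to 0.753 CPM in bulk tumor and to 0.899 to 3.84 CPM in M-MDSC, for counting error only. Values for M-MDSC of spleen and for PMN-MDSC of tumor, given beside them for some genes, are relative to library totals without TMM scaling. Pearson's r of log2(CPM + 1) across genes was 0.911 to 0.97 within M-MDSC, 0.929 to 0.97 within bulk tumor and 0.371 to 0.491 between the groups, where genes are not independent replicates. Library 24 was the shallowest, and differences near its floor were not detectable there.

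Of 11022 genes that averaged 25 counts or more, 2457 (22.3%) were higher and 2160 (19.6%) were lower in bulk tumor (edgeR quasi-likelihood test, adjusted p below 0.001 and at least 2-fold). Below, a gene is said to be called where it met both limits. At an unadjusted p below 0.05 the number was 7902. The groups did not overlap for 7055 (64%) of the 11022 tested genes, so a lack of overlap was common. The median log2 fold change of all tested genes, bulk tumor over M-MDSC, was 0.17, and it was 0.38 with upper-quartile scaling, so changes are read against a shift of this size. Bulk tumor libraries were deeper, so a gene could reach the count minimum through bulk tumor alone. With at least 10 counts in every library, 6602 genes were tested. Of the 2457 higher genes 689 were called again, and of the 2160 lower genes 1427. The tallies of gene lists below share this limit. Most tested epithelial and extracellular matrix genes stood on the side of bulk tumor. Pan-myeloid genes and most immediate early and heat shock genes stood on the side of M-MDSC (plot of mean expression in both groups).

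**Figure D1:**
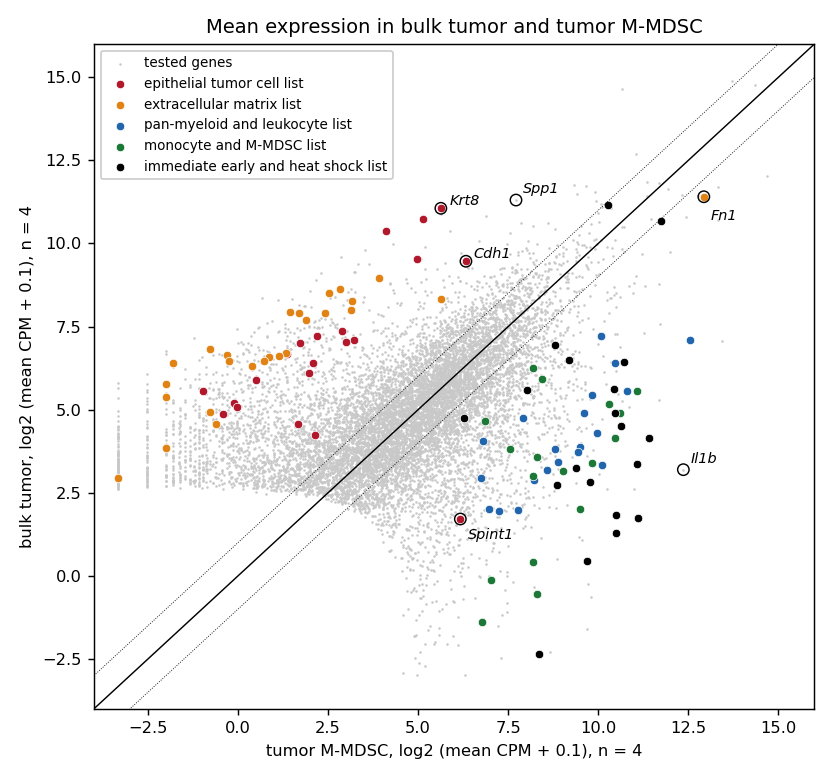
Each point is 1 of 11022 tested genes, with the mean CPM of 4 tumor M-MDSC libraries on the x axis and of 4 bulk tumor libraries on the y axis, both as log2(CPM + 0.1). The solid line marks equal values and the dotted lines a 2-fold difference. Extracellular matrix genes lie above the lines except Fn1, epithelial genes lie above them except Spint1, and Spp1 lies above the lines with 2160 to 2890 CPM in bulk tumor.

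The 12 genes furthest on the side of bulk tumor, among those that reached 100 CPM with groups that did not overlap, were 3110039I08Rik, Il5ra, Ttll7, Samd5, Mal, Tnc, Patj, Lrp2, Acan, Plch1, Tnnt2 and Cpe. Patj, a scaffold of tight junctions, measured 1.18, 5.9, 1.2 and 0 CPM in M-MDSC and 318, 432, 285 and 215 CPM in bulk tumor (log2 fold change 7.26, SE 0.479, adjusted p = 1.7e-07). Mal, a protein of apical membrane traffic, measured 0 to 3 CPM against 184 to 433 CPM (7.44, SE 0.52), and Acan, the cartilage proteoglycan aggrecan, 0 to 4.42 CPM against 73.9 to 260 CPM (7.16, SE 0.725). For 3 of the 12 genes M-MDSC held 1 to 3 counts over all libraries: the ratio was 514 (95% counting interval 142 to 4250) for 3110039I08Rik, 393 (109 to 3250) for Il5ra and 364 (101 to 3000) for Ttll7. Bulk tumor library 41 stood highest for Il5ra, a receptor chain for interleukin 5, with 251 CPM against 43.4 to 84.6 CPM in the other bulk tumors, and for Lrp2, the endocytic receptor megalin, with 417 against 56.8 to 135 CPM. Without M-MDSC library 4 the call of Lrp2 was lost (adjusted p = 0.00127) and without M-MDSC library 20 that of Il5ra (adjusted p = 0.00101). Leaving out M-MDSC library 8 raised the log2 fold change of Cpe, Plch1, Acan, Lrp2, Patj, Samd5 and 3110039I08Rik to between 8.27 and 9.92, and leaving out M-MDSC library 20 raised that of Mal, Tnc, Ttll7 and Il5ra to between 8.33 and 12.08 and lowered those of Lrp2 and 3110039I08Rik to 6.62 and 8.07. Without bulk tumor library 41 the log2 fold changes of Lrp2 and Il5ra were 6.33 and 7.68.

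The 12 genes furthest on the side of M-MDSC were Hspa1a, Osm, Ccrl2, Clec4e, Cxcl2, Fosb, Zfp36, Dusp1, Il1b, Chil3, Trem1 and Dusp2. Il1b (chromosome 2, 129364570 to 129371139, minus strand, GRCm38), the inflammatory cytokine interleukin 1 beta, measured 6880, 4550, 5780 and 3810 CPM in M-MDSC and 9.29, 12, 7.97 and 6.91 CPM in bulk tumor. The bulk tumor mean was 0.172% of the M-MDSC mean (log2 fold change -9.20, SE 0.362, adjusted p = 9.4e-09). Osm, encoding the cytokine oncostatin M, fell from 493 to 1150 CPM in M-MDSC to 0.103 to 0.314 CPM in bulk tumor (-11.68, SE 0.424), and Clec4e, an innate receptor for damaged cells and mycobacteria, from 528 to 1200 CPM to 0.258 to 0.753 CPM (-10.69, SE 0.413). The myeloid receptor Trem1 measured 74.2 to 213 CPM in M-MDSC and at most 0.419 CPM in bulk tumor, and the monocyte lectin Chil3 measured 228 to 392 CPM and at most 1.36 CPM. Without bulk tumor library 46 the log2 fold changes of Ccrl2, Chil3 and Dusp2 moved from -11.35, -9.10 and -8.88 to -12.25, -10.35 and -9.55. The heat shock gene Hspa1a is nearly identical to Hspa1b, so that the share of reads between them is uncertain.

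Epithelial genes were measured to ask how much of the bulk profile comes from tumor cells. Of 30 epithelial tumor cell genes, 21 were tested, of which 18 were higher in bulk tumor, 1 was lower and 2 were not called, with a median log2 fold change of 5.08 against 0.17 over all tested genes. The keratin Krt8 (chromosome 15, 101996698 to 102004482, minus strand, GRCm38) measured 4.13, 116, 35.7 and 42.2 CPM in M-MDSC and 2420, 2730, 1690 and 1660 CPM in bulk tumor (log2 fold change 5.44, SE 0.733, adjusted p = 6.9e-05). Its partner Krt18 measured 7.08, 72.3, 27.9 and 32 CPM and 1870, 2050, 1620 and 1270 CPM (5.63, SE 0.55). Dsp, encoding the desmosomal protein desmoplakin, measured 2.95 to 27.3 CPM and 605 to 1700 CPM (6.30, SE 0.561). Every bulk tumor library lay above every M-MDSC library for these 3 genes, and M-MDSC library 8 was the highest and library 4 the lowest of the M-MDSC. Without library 8 the log2 fold change was 6.41 for Krt8, 6.38 for Krt18 and 5.55 instead of 4.65 for the ductal keratin Krt19. Per exon length, scaled for transcript length (TPM), the mean levels in bulk tumor were 3060 for Krt18, 2820 for Krt8, 379 for Cdh1 and 360 for Dsp.

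Cdh1, encoding E-cadherin of adherens junctions, had a smaller log2 fold change than Krt8, Krt18 and Krt19. It measured 91.5, 103, 75.8 and 49.9 CPM in M-MDSC and 554, 727, 711 and 831 CPM in bulk tumor (log2 fold change 3.13, SE 0.244, adjusted p = 5.5e-07). M-MDSC library 4, the lowest for Krt8, was the second highest for Cdh1, and M-MDSC of spleen measured 0.527 to 3.25 CPM. Spint1, a membrane-bound inhibitor of serine proteases, ran in the opposite direction, with 70.8, 85.5, 81.5 and 49.9 CPM in M-MDSC and 3.87, 2.26, 3 and 3.56 CPM in bulk tumor (-4.48, SE 0.253, adjusted p = 5.7e-08). Muc1, encoding a mucin of the apical surface, measured 3.54, 28.8, 4.19 and 0 CPM against 145, 28.6, 136 and 234 CPM, and was not called (3.92, SE 0.884, adjusted p = 0.00316). It passed without M-MDSC library 8 (5.48, adjusted p = 0.000266) and without bulk tumor library 42 (4.27, adjusted p = 0.00057). Krt7, a further ductal keratin, was not called either (2.47, adjusted p = 0.00207), although its groups did not overlap.

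Several epithelial genes were near the floor in bulk tumor too and were not tested. Epcam, the epithelial adhesion molecule, measured 1.42, 0.251, 0.517 and 2.3 CPM in bulk tumor, and the claudin genes Cldn3, Cldn4 and Cldn7 at most 0.523 CPM. Grhl2 and Esrp1, a transcription factor and a splicing regulator of the epithelial state, reached at most 1.94 and 0.502 CPM. Among genes linked to this tumor model, Trp53 measured 27.1, 31.7, 29.7 and 14.1 CPM in M-MDSC and 10.7 to 13.7 CPM in bulk tumor and was not called (-1.12, adjusted p = 0.00221), but it passed without M-MDSC library 24 (-1.31, adjusted p = 0.00014). Counts per gene do not separate the engineered alleles from the alleles of the host. Cdkn2a, the locus of the tumor suppressors p16 and p19Arf, measured at most 4.42 CPM in M-MDSC and 24.6 to 45.8 CPM in bulk tumor (4.61, SE 0.575), and the oncogene Myc 12.8 to 30 CPM and 53.1 to 85.4 CPM (1.64, SE 0.277). Without M-MDSC library 8 the log2 fold change of Cdkn2a was 5.8. The call of Myc was lost without M-MDSC library 4 (adjusted p = 0.00102).

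Transcripts of genes on the Y chromosome were present in bulk tumor, whose hosts were female according to the methods. Ddx3y (chromosome Y, 1260771 to 1286629, minus strand, GRCm38), encoding an RNA helicase, measured 0, 0, 0.899 and 0 CPM in M-MDSC and 5.03, 15.1, 35.8 and 38.2 CPM in bulk tumor. Eif2s3y, a subunit of a translation initiation factor, measured 4.9, 11.3, 22.4 and 24.9 CPM in bulk tumor and held 1 count in M-MDSC. The histone demethylase genes Kdm5d and Uty reached 41.1 and 35.4 CPM in bulk tumor library 46 and 2.97 and 3.23 CPM in library 41. In M-MDSC, Uty had no count, and Kdm5d measured 0, 0.737, 0.3 and 5.12 CPM, so that M-MDSC library 24 lay above bulk tumor library 41. Ddx3y and Eif2s3y were called higher, with ratios of 62.5 (95% counting interval 21.3 to 304) and 124 (22.2 to 4920), and Kdm5d and Uty were not (adjusted p = 0.00482 and 0.00384). Leaving out any M-MDSC library ended the call of Ddx3y (adjusted p 0.00107 to 0.0033), leaving out M-MDSC library 8 or 20 ended that of Eif2s3y (0.00103 and 0.00127), and without bulk tumor library 41 Kdm5d and Uty passed (0.000392 and 0.000306). The fitted log2 fold change of Ddx3y moved from 5.79 to 9.9 without M-MDSC library 20, and that of Eif2s3y from 6.58 to 9.42 without library 8 and to 5.87 without library 20. Which cells carried these transcripts was not tested.

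Normal pancreas contributed little to either group. None of the 25 genes of the acinar list, the digestive enzyme genes of the exocrine pancreas, and none of the 10 islet genes reached the count minimum. The summed acinar level was 10.3 to 48.8 CPM in M-MDSC and 7.78 to 36.7 CPM in bulk tumor. The summed islet level was 0.517 to 33.1 CPM in bulk tumor and at most 0.599 CPM in M-MDSC, and the glucagon gene Gcg measured 8.69 CPM in bulk tumor library 46.

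**Figure D2:**
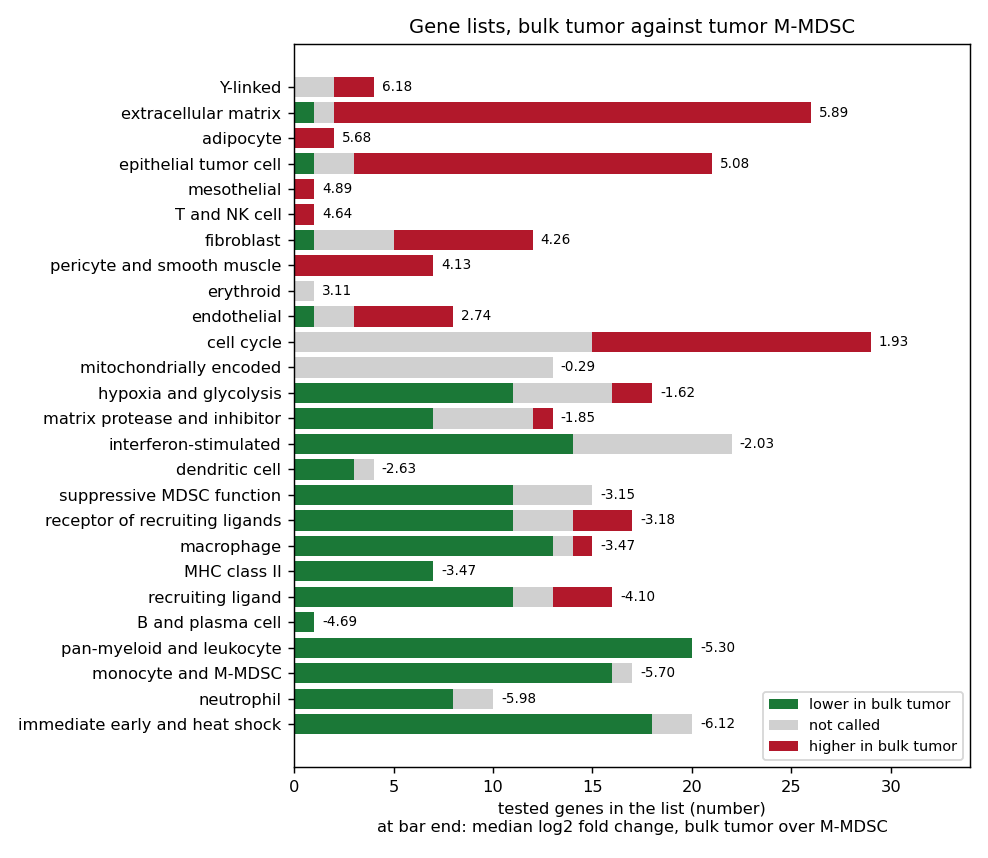
For gene lists with tested members, other than genes linked to the tumor model, bars give the number of genes lower in bulk tumor, not called and higher in bulk tumor, and the value at the bar end is the list's median log2 fold change. Lists are ordered by that median, from 6.18 for Y-linked genes to -6.12 for immediate early and heat shock genes, beside 0.17 over all tested genes.

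The extracellular matrix is built by fibroblasts, vessel cells and epithelial cells. Of 27 matrix genes, 26 were tested, of which 24 were higher in bulk tumor, 1 was lower and 1 was not called (median log2 fold change 5.89). Col1a1 (chromosome 11, 94936224 to 94953042, plus strand, GRCm38), a chain of fibrillar collagen I, measured 3.54, 11.1, 6.89 and 1.28 CPM in M-MDSC and 473, 318, 326 and 330 CPM in bulk tumor (5.88, SE 0.364, adjusted p = 1.1e-07). Col4a1, a chain of basement membrane collagen, measured 1.18, 40.6, 12.3 and 6.4 CPM and 468, 546, 541 and 424 CPM (5.04, SE 0.637). Tenascin C, encoded by Tnc, measured at most 1.2 CPM in M-MDSC and 69 to 187 CPM in bulk tumor (7.34, SE 0.549), and Sparc, a collagen-binding matrix protein gene, at most 8.85 CPM and 214 to 273 CPM (6.17, SE 0.522). Of Col6a3, a collagen VI chain, M-MDSC held 1 count (ratio 585, 95% counting interval 105 to 23100), and its fitted log2 fold change of 8.97 was 11.81 without M-MDSC library 8 and 8.25 without library 20. Lamc1, the laminin gamma 1 gene, had a smaller difference, with 41.3, 72.3, 63.5 and 23 CPM in M-MDSC and 304, 376, 299 and 301 CPM in bulk tumor (2.64, SE 0.284). Mgp was not called (adjusted p = 0.00268) and had no count in M-MDSC, which made it at least 20.8-fold higher in bulk tumor against 3 counts over the group. Without M-MDSC library 8 the log2 fold changes of Col4a1 and Sparc were 6.19 and 7.10, and without library 20 those of Tnc and Col3a1 were 8.70 and 5.82, the latter from 4.87.

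Fn1 (chromosome 1, 71585520 to 71653200, minus strand, GRCm38), the gene of the matrix glycoprotein fibronectin, was the matrix gene that was lower in bulk tumor. It measured 7930, 6010, 9190 and 8080 CPM in M-MDSC and 2890, 3070, 2800 and 2090 CPM in bulk tumor, and the groups did not overlap (log2 fold change -1.52, SE 0.234, adjusted p = 0.00012). The call was lost without M-MDSC library 20 (-1.40, adjusted p = 0.00146). M-MDSC of spleen measured 2460 to 4510 CPM of Fn1, whereas they measured at most 12.4 CPM of Spp1. In TPM, Fn1 stood at 593 and Col1a1 at 138 in bulk tumor, and at 1040 and 1.32 in tumor M-MDSC.

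Of 20 fibroblast genes, 12 were tested, of which 7 were higher, 1 was lower and 4 were not called (median 4.26). Postn, the gene of the fibroblast product periostin, measured 0, 2.95, 0.3 and 0 CPM in M-MDSC and 63.5, 53.2, 57.4 and 55.9 CPM in bulk tumor (6.28, SE 0.511, and 8.32 without M-MDSC library 8). Twist1, a mesenchymal transcription factor, had no count in M-MDSC and 9.73 to 14.5 CPM in bulk tumor, at least 26.4-fold higher against 3 counts over the group. Acta2, the smooth muscle actin of contractile fibroblasts, was low in bulk tumor, with 11.3 to 18.1 CPM against 2.56 to 8.11 CPM in M-MDSC (1.47, adjusted p = 0.00332, not called), and the gelatinase gene Mmp2 measured 4.13 to 25.6 CPM and 23.1 to 31.5 CPM (0.64, adjusted p = 0.158). Pi16, a marker of universal fibroblasts, was the lower one: it measured 36.6, 61.2, 30.9 and 16.6 CPM in M-MDSC and 0, 0, 0 and 0.209 CPM in bulk tumor, a ratio of 563 (95% counting interval 154 to 4680). All bulk tumor counts of Pi16 were in library 46, and without it the fitted log2 fold change moved from -8.67 to -10.14. M-MDSC of spleen measured a mean of 63.9 CPM of Pi16.

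Tested genes of the other stromal lists were mostly higher in bulk tumor, at low levels, and some of these lists had few or no tested genes. All 7 tested genes of 9 for pericytes and smooth muscle were higher (median 4.13), among them Myh11, smooth muscle myosin, with 8.37 to 43.4 CPM against at most 1.5 CPM, whose log2 fold change rose from 5.38 to 10.16 without M-MDSC library 20. Of 8 tested endothelial genes of 20, 5 were higher, 1 was lower and 2 were not called (median 2.74). The VEGF receptor genes Flt1 and Kdr measured 57.9 to 126 CPM and 16.3 to 34.4 CPM in bulk tumor against 6.4 to 25.8 CPM and 0 to 3.6 CPM in M-MDSC (2.34 and 3.26, and for Kdr 3.93 without M-MDSC library 20), and the endothelial cadherin gene Cdh5 15.7 to 25.3 CPM against 0 to 2.95 CPM (3.04, SE 0.403). Eng, the TGF-beta co-receptor endoglin, was lower in bulk tumor, with 25.4, 38.3, 29.4 and 10.2 CPM in M-MDSC and 6.71, 8.53, 8.18 and 6.7 CPM in bulk tumor (-1.82, adjusted p = 0.00038), a call that was lost when any library other than M-MDSC library 24 was left out (adjusted p 0.00107 to 0.00199). Pecam1, an adhesion molecule of vessels and leukocytes, was not called (-0.67, adjusted p = 0.0389). Msln, the gene of the mesothelial and pancreatic cancer antigen mesothelin, measured 77.3 to 123 CPM in bulk tumor and 1.77, 11.8, 1.5 and 0 CPM in M-MDSC (4.89, SE 0.541, and 6.38 without M-MDSC library 8). It was the 1 tested gene of 7 in the mesothelial list. Both tested adipocyte genes of 6 were higher (median 5.68), while 2 of the 6 had no count in bulk tumor. None of 4 Schwann cell genes was tested, and the 1 tested erythroid gene of 7 was not called.

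**Figure D3:**
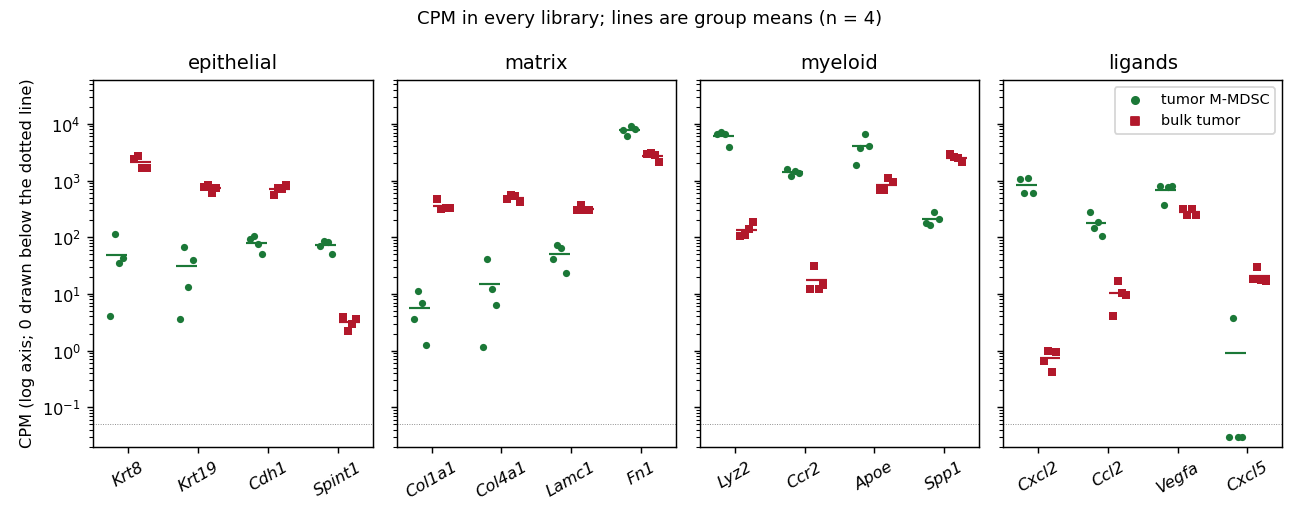
CPM on a log axis for 16 genes in the 4 M-MDSC (green circles) and 4 bulk tumor libraries (red squares), with a line at each group mean. The groups do not overlap for any of the 16, as for 64% of all tested genes. Spint1 and Fn1 run against the other epithelial and matrix genes shown, Spp1 against the other myeloid genes and Cxcl5 against the other ligands.

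Tumor and stroma genes were not absent from sorted M-MDSC, and their level there differed between libraries. For the 18 epithelial genes higher in bulk tumor, the median level in M-MDSC libraries 4, 8, 20 and 24 was 0.386%, 6.36%, 1.63% and 2.71% of the bulk tumor mean, on library totals. These genes were chosen for being lower in M-MDSC, so a low level follows in part from that choice. Over all 21 tested epithelial genes the medians were 0.422%, 7.48%, 1.8% and 3.57%. For the 24 matrix genes chosen in the same way the median level was 0%, 3.4%, 1.19% and 0%, and 11, 21, 20 and 7 of these genes had a count. Library 8 was highest in both lists. Cdh1 stood at 11.3%, 12.5%, 9.3% and 6.52% in the same libraries and Lamc1 at 11.3%, 19.4%, 17.3% and 6.66%, above the median of their lists in each library. Summed over the whole epithelial list, M-MDSC reached 3.87% ± 1.89 (SD, n = 4) of the bulk tumor level and M-MDSC of spleen 0.759% to 1.34%. Spint1 and Cdh1 weighed on this sum, most of all in library 4, where they measured 70.8 and 91.5 CPM of a list total of 197 CPM. Summed over the whole matrix list the level was 103% ± 17.3 (SD, n = 4), since Fn1 made up most of that sum, and the median matrix gene tested stood at 1.15%. Whether tumor or stromal RNA in the sorted samples had a part in any difference was not tested.

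**Figure D4:**
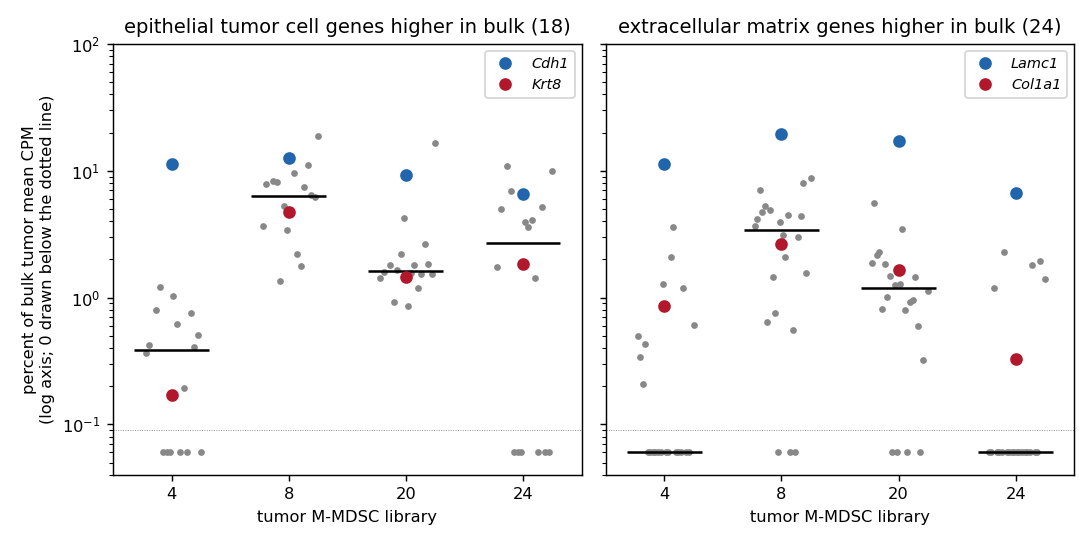
Level of each gene in each tumor M-MDSC library as percent of the bulk tumor mean (log axis), for 18 epithelial and 24 matrix genes that were higher in bulk tumor, with the median as a black line. The genes were chosen by that call, so low levels follow in part from the choice. Library 8 has the highest median in both panels, 6.36% and 3.4%, and Cdh1 and Lamc1 lie above the median in all 4 libraries.

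Genes of the monocyte list and of the pan-myeloid and leukocyte list were low in bulk tumor. The sorted cells were selected on CD11b, encoded by Itgam, and on Ly6C, so that Itgam (330 to 809 CPM against 5.94 to 10.5 CPM) and Ly6c2 (40.9 to 161 CPM against at most 0.628 CPM) follow from the gate. Without bulk tumor library 46 the fitted log2 fold change of Ly6c2 moved from -8.59 to -9.65. Ly6c2 has a near-identical neighbour, Ly6c1, which measured at most 0.737 CPM in M-MDSC and 2.01 CPM in bulk tumor, and Ly6g had 2 libraries with a count among M-MDSC, at most 0.59 CPM. All 17 monocyte and M-MDSC genes were tested, Itgam and Ly6c2 among them. Of these, 16 were lower in bulk tumor and 1 was not called (median -5.70). All 20 tested genes of 21 in the pan-myeloid and leukocyte list were lower (median -5.30). Cells enriched and sorted on CD11b are myeloid, so the direction of both lists follows in part from the sort. Lyz2 (chromosome 10, 117277331 to 117282321, plus strand, GRCm38), the myeloid lysozyme gene, measured 6550, 7130, 6520 and 3920 CPM in M-MDSC and 106, 109, 140 and 187 CPM in bulk tumor (-5.47, SE 0.323, adjusted p = 7.8e-08). Ccr2, the CCL2 receptor that brings monocytes into tissue, measured 1570, 1210, 1480 and 1340 CPM and 12.3, 31.1, 12 and 14.4 CPM (-6.35, SE 0.363). Cd14, the co-receptor for lipopolysaccharide, measured 718 to 2120 CPM and 22.5 to 33.4 CPM (-5.70, SE 0.36), and Vcan, a proteoglycan gene of monocytes and of stroma, 1850 to 2450 CPM and 34.3 to 75.5 CPM (-5.52, SE 0.318). Ptprc, encoding CD45 of all leukocytes, which the methods also name among the stains, measured 1240 to 1530 CPM and 48.5 to 105 CPM (-4.07, SE 0.269). The median gene of the pan-myeloid list stood in bulk tumor libraries 41, 42, 45 and 46 at 1.85%, 2.43%, 2.99% and 3.23% of the M-MDSC mean.

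Some monocyte genes had smaller differences. Plac8 and Cx3cr1, a fractalkine receptor, measured 184 to 530 CPM and 49 to 170 CPM in M-MDSC against 42.9 to 78.3 CPM and 15.5 to 29.9 CPM in bulk tumor (-2.54 and -2.20). F10, coagulation factor X, had one of the larger ones, with 604 to 786 CPM against 3.35 to 5.02 CPM (-7.56, SE 0.233). Cybb, a subunit of the phagocyte oxidase, measured 927 to 1180 CPM against 78.6, 239, 112 and 167 CPM (-2.86, SE 0.318). Klf4, a transcription factor shared by monocytes and epithelia, measured 229, 122, 388 and 425 CPM in M-MDSC and 51.4, 155, 56.6 and 38.7 CPM in bulk tumor and was not called (-1.96, adjusted p = 0.00472). It passed without bulk tumor library 42 (-2.56, adjusted p = 0.000208).

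Macrophage genes were likewise mostly lower in bulk tumor, by less. Of 15 tested genes of 19, 13 were lower in bulk tumor, 1 was higher and 1 was not called (median -3.47), and the median gene stood at 4.99% to 11.7% of the M-MDSC mean in bulk tumor. Apoe, a lipoprotein gene of macrophages, measured 1900, 3750, 6610 and 4130 CPM in M-MDSC and 678, 686, 1100 and 927 CPM in bulk tumor (-2.27, SE 0.355, adjusted p = 0.00014). The complement gene C1qb measured 208 to 491 CPM and 14.5 to 31.7 CPM (-3.73, SE 0.344). Spp1 (chromosome 5, 104435118 to 104441050, plus strand, GRCm38), encoding osteopontin, a secreted glycoprotein of macrophages and of carcinoma cells, ran in the opposite direction and measured 179, 167, 284 and 209 CPM in M-MDSC and 2890, 2570, 2510 and 2160 CPM in bulk tumor (3.59, SE 0.241, adjusted p = 1.9e-07). Its groups did not overlap, and in TPM Spp1 averaged 3880 in bulk tumor, above Krt8. Ms4a7, a membrane protein gene of resident macrophages, was not called (-0.93, adjusted p = 0.0789).

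Of the MHC class II, neutrophil and dendritic cell lists, no tested gene was called higher in bulk tumor. All 7 tested MHC class II genes of 8 were lower (median -3.47), with the invariant chain gene Cd74 at 3180, 3160, 4280 and 2500 CPM in M-MDSC and 213, 590, 440 and 512 CPM in bulk tumor (-2.90, SE 0.326), and H2-Ab1 at 763 to 1120 CPM and 37.3 to 97.3 CPM (-3.55, SE 0.303). Bulk tumor library 41 was the lowest for both. Of 10 tested neutrophil genes of 16, 8 were lower and 2 were not called (median -5.98). The calprotectin subunit S100a9 measured 17.7, 108, 108 and 14.1 CPM in M-MDSC, a spread among the M-MDSC that the granule gene Ngp shared with 23.6, 163, 250 and 29.4 CPM, high in libraries 8 and 20 and low in libraries 4 and 24. S100a9 was called (-5.49, adjusted p = 0.00021, lost without bulk tumor library 41 or 45 with adjusted p = 0.00141 and 0.00152, and -6.31 without library 42), as was S100a8 (-5.42, adjusted p = 0.00022, lost without bulk tumor library 41, 42 or 45 with adjusted p 0.00117 to 0.00131), whose groups overlapped. Ngp was not called (-6.48, adjusted p = 0.00221) and passed without bulk tumor library 42 (-9.43, adjusted p = 0.000252). Csf3r, the G-CSF receptor, measured 146 to 256 CPM and 4.19 to 8.03 CPM (-5.22, SE 0.273). Of 4 tested dendritic cell genes of 14, 3 were lower and 1 was not called.

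Genes by which MDSC restrain T cells were compared next. Of 19 genes, 15 were tested, of which 11 were lower in bulk tumor and 4 were not called (median -3.15). Ptgs2, the inducible cyclooxygenase of prostaglandin synthesis, measured 2850, 1710, 2310 and 1280 CPM in M-MDSC and 9.16, 4.27, 4.55 and 6.17 CPM in bulk tumor (-8.38, SE 0.405). The cytokine genes Tnf and Tgfb1 measured 124 to 233 CPM and 322 to 501 CPM in M-MDSC against 0.516 to 1 CPM and 20.8 to 31.5 CPM in bulk tumor (-8.03 and -4.02), and Cd274, encoding the checkpoint ligand PD-L1, 91.7 to 140 CPM against 4.9 to 11 CPM (-3.88, SE 0.279). Ido1, the tryptophan-degrading enzyme, pointed the other way without being called: M-MDSC held 1 count and bulk tumor measured 2.19, 41.7, 19 and 14.1 CPM (ratio 116, 95% counting interval 20.8 to 4600, adjusted p = 0.00101). Bulk tumor library 41 was the lowest for Ido1, and without it the gene passed (adjusted p = 2.95e-05). Nt5e, the adenosine-forming enzyme CD73, measured 17.7 to 35.8 CPM and 42.7 to 76.8 CPM (1.03, adjusted p = 0.00591, not called).

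Ligands that recruit or sustain myeloid cells were mostly higher in M-MDSC. Of 16 tested genes of 21, 11 were lower in bulk tumor, 3 were higher and 2 were not called (median -4.10). Cxcl2, a neutrophil chemoattractant, measured 1070, 592, 1110 and 594 CPM in M-MDSC and 0.645, 1, 0.414 and 0.942 CPM in bulk tumor (-10.15, SE 0.407, adjusted p = 9.5e-09), and of its relative Cxcl1 bulk tumor held 1 count against 37.1 to 136 CPM in M-MDSC (ratio 3070, 95% counting interval 548 to 121000, fitted log2 fold change -10.45 and, without bulk tumor library 46, -11.29). Ccl2, the ligand of CCR2, measured 275, 145, 188 and 104 CPM and 4, 17.1, 10.2 and 9.42 CPM (-4.17, SE 0.42). Il6 measured 57.6 to 224 CPM and at most 0.837 CPM (-8.54, SE 0.578, and -9.16 without bulk tumor library 46). Vegfa, the angiogenic factor, had a small difference, with 800, 373, 771 and 810 CPM in M-MDSC and 310, 242, 310 and 250 CPM in bulk tumor (-1.31, adjusted p = 0.00061). Its call was lost when any library other than M-MDSC library 8 was left out (adjusted p 0.00167 to 0.00503). M-MDSC of spleen measured at most 0.527 CPM of Cxcl2, 2.79 CPM of Ccl2 and 14.1 CPM of Vegfa.

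The 3 ligands higher in bulk tumor were Cxcl5, Tgfb2 and Tgfb3. Cxcl5, a CXCR2 ligand of epithelial cells, measured 0, 3.69, 0 and 0 CPM in M-MDSC and 18.5, 29.9, 17.3 and 17.2 CPM in bulk tumor (4.75, SE 0.752, adjusted p = 0.00016, 9.78 without M-MDSC library 8 and 4.02 without library 20). Tgfb3 measured 0 to 5.9 CPM and 22.4 to 40.6 CPM (3.10, SE 0.435), and of Tgfb2 M-MDSC held 3 counts (ratio 15.3, 95% counting interval 5.16 to 74.8, call lost without M-MDSC library 4, 8 or 20 with adjusted p 0.00237 to 0.00471, while the fitted log2 fold change moved from 3.8 to 3.03 without library 20 and to 5.13 without library 24, where the call was kept). The family member Tgfb1 was thus on the opposite side from Tgfb2 and Tgfb3. Of 17 tested receptors of 21, 11 were lower in bulk tumor, 3 were higher and 3 were not called (median -3.18). Csf1r, the M-CSF receptor, measured 1310, 1260, 1380 and 1100 CPM in M-MDSC and 25.7, 41.9, 38.8 and 38.4 CPM in bulk tumor (-5.12, SE 0.23), and Cxcr4 74.4 to 127 CPM and 1.25 to 3.77 CPM (-5.41, SE 0.318). Il11ra1, the interleukin 11 receptor, was higher in bulk tumor together with Flt1 and Kdr, at 48.9 to 137 CPM against 7.67 to 16.2 CPM (2.71, SE 0.379).

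Proteases that remodel the matrix and their inhibitors were mixed. Of 13 tested genes of 17, 7 were lower, 1 was higher and 5 were not called (median -1.85). The higher one was the inhibitor Timp3, with 0, 2.95, 0.3 and 0 CPM in M-MDSC and 66.1 to 113 CPM in bulk tumor (6.92, SE 0.545, and 8.96 without M-MDSC library 8). Mmp19, a metalloprotease, measured 134 to 271 CPM and 1.81 to 3.01 CPM (-6.45, SE 0.288), Plaur, the urokinase receptor, 179 to 444 CPM and 41.3 to 62.8 CPM (-2.72, SE 0.273), and the membrane-type protease Mmp14 was not called (0.60, adjusted p = 0.0835).

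Lymphocyte genes were scarce. Of 21 T and NK cell genes 1 was tested: Cd3g, a chain of the T cell receptor complex, measured 0.59, 0, 0.899 and 0 CPM in M-MDSC and 3.74, 26.8, 13.5 and 13.3 CPM in bulk tumor (4.64, SE 0.841, adjusted p = 0.00043). Its call was lost when any M-MDSC library or bulk tumor library 45 was left out (adjusted p 0.00105 to 0.00218), and the log2 fold change was 5.7 without M-MDSC library 20. The summed list measured 14.8 to 69.5 CPM in bulk tumor and 20.1 to 32 CPM in M-MDSC. Of 13 B and plasma cell genes Ighm, the heavy chain of IgM, was tested and lower in bulk tumor, with 38.4 to 83 CPM in M-MDSC against 0.645 to 3.14 CPM (-4.69, SE 0.414).

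Immediate early and heat shock genes, which cells switch on within minutes of stimulation or stress, were the list furthest on the side of M-MDSC. All 20 were tested, of which 18 were lower in bulk tumor and 2 were not called (median -6.12). Fos measured 2450, 2260, 2940 and 3210 CPM in M-MDSC and 21.3, 15.3, 21.8 and 11.8 CPM in bulk tumor (-7.27, SE 0.311, adjusted p = 1.3e-08). Its partner Jun measured 1380 to 1460 CPM and 18.8 to 35.6 CPM (-5.58, SE 0.255), Egr1 490 to 928 CPM and 5.77 to 13.1 CPM (-6.12, SE 0.323), and Zfp36, which destabilises cytokine transcripts, 1080 to 2750 CPM and 0.502 to 6.17 CPM (-9.30, SE 0.606). The phosphatase gene Dusp1 measured 960 to 1790 CPM and 1.76 to 3.21 CPM (-9.22, SE 0.343). Of the heat shock genes, Hspa1b measured 1930, 2880, 1040 and 2790 CPM and 4.92 to 15.3 CPM (-7.76, SE 0.509), whereas the chaperone genes Hspa8 (-1.06, adjusted p = 0.00296) and Hsp90aa1 (0.88, adjusted p = 0.0824) were not called.

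The same genes were low in M-MDSC of spleen, which were enriched and sorted in the same way but from spleens pressed through a strainer, without the dissociation used for tumors. There Fos measured 21.9 to 108 CPM, Jun 54.5 to 98.1 CPM, Egr1 4.18 to 14.8 CPM and Dusp1 18.8 to 66.9 CPM. In PMN-MDSC, the granulocytic counterpart sorted from dissociated tumors, Fos measured 1770 to 3010 CPM and Egr1 1010 to 1700 CPM. Summed over the list, the level was 23300 to 26800 CPM in tumor M-MDSC, 3180 to 6220 CPM in bulk tumor and 3080 to 4470 CPM in spleen M-MDSC. In bulk tumor most of that sum came from Hspa8 and Hsp90aa1, which were not called and averaged 1640 and 2280 CPM there. Tumor residence and dissociation went together in these samples and cannot be told apart.

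**Figure D5:**
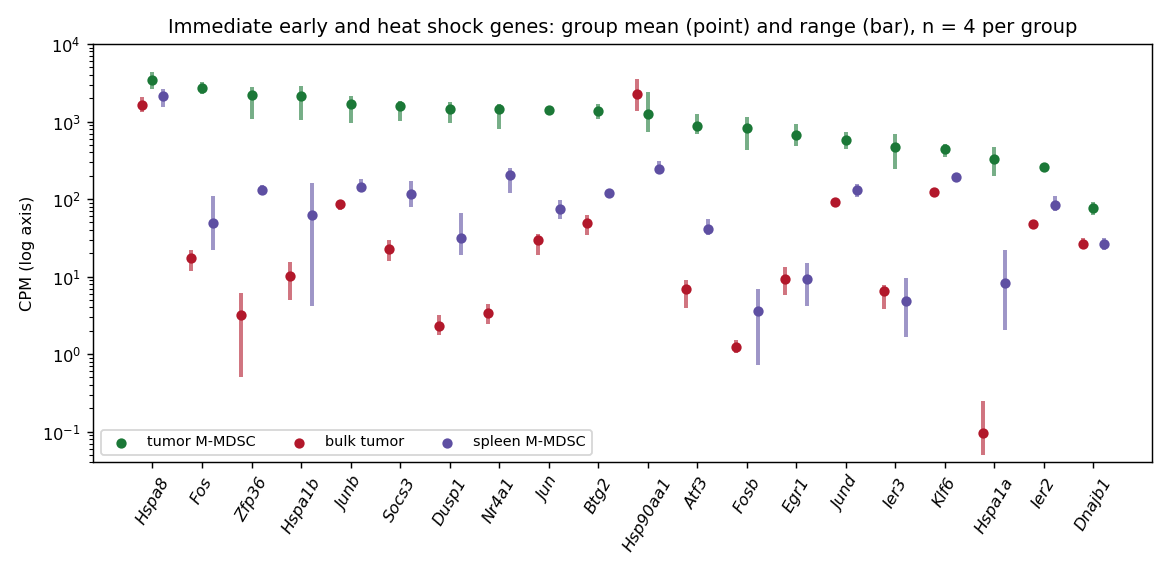
Mean CPM (points, log axis) and range over 4 libraries (bars) of 20 immediate early and heat shock genes in tumor M-MDSC (green), bulk tumor (red) and spleen M-MDSC (purple). For the 18 called genes tumor M-MDSC lie above bulk tumor, and Fos, for example, averages 2720 CPM in tumor M-MDSC while its spleen range ends at 108 CPM. Spleen values are relative to library totals, without the TMM scaling of the other groups.

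Cell cycle genes stood on the side of bulk tumor in part. Of 29 tested genes of 30, 14 were higher, none was lower and 15 were not called (median 1.93, adjusted p below 0.001 and 2-fold by edgeR). Top2a, the topoisomerase of dividing cells, measured 18.3, 68.6, 63.2 and 53.7 CPM in M-MDSC and 577, 601, 294 and 441 CPM in bulk tumor (3.23, SE 0.377, adjusted p = 1.4e-05), and Cenpf, a kinetochore gene, 4.72 to 26.5 CPM and 183 to 702 CPM (4.29, SE 0.559). The replication gene Mcm6 was higher (1.86, SE 0.229), while Pcna, the sliding clamp of replication, was not called and measured 39.7 to 58.3 CPM and 27.9 to 46.7 CPM (-0.41, adjusted p = 0.093). Mki67, the proliferation marker, measured 112, 298, 266 and 98.5 CPM and 736, 785, 368 and 604 CPM and was not called (1.68, adjusted p = 0.00184), but passed without M-MDSC library 8 (2.07, adjusted p = 0.000777). M-MDSC library 4 was the lowest for Top2a and Cenpf.

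Genes of hypoxia and glycolysis were mostly lower in bulk tumor. Of 18 tested genes of 19, 11 were lower, 2 were higher and 5 were not called (median -1.62). Eno1, the glycolytic enolase, measured 585 to 856 CPM in M-MDSC and 82.8 to 125 CPM in bulk tumor (-2.73, SE 0.2), and Hk2, a hexokinase, was not called (-0.98, adjusted p = 0.00438). The higher ones were Ndrg1, a hypoxia-induced gene, with 85.6, 98.8, 83.3 and 92.1 CPM in M-MDSC and 490, 1220, 406 and 339 CPM in bulk tumor (2.77, SE 0.379), and Car9, a carbonic anhydrase of hypoxic epithelia, with at most 2.56 CPM and 4.52 to 11.8 CPM (3.21, adjusted p = 0.00051). The call of Car9 was lost without M-MDSC library 4, 8 or 20 or bulk tumor library 41 or 45 (adjusted p 0.00142 to 0.00273).

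Interferon-stimulated genes were lower in bulk tumor for 14 of 22 tested genes of 23, with 8 not called and none higher (median -2.03). Oas2, an antiviral sensor of double-stranded RNA, measured 181, 147, 123 and 85.7 CPM in M-MDSC and 1.42, 3.26, 6.83 and 11.8 CPM in bulk tumor (-4.47, SE 0.515, adjusted p = 1.8e-05), Irf7, the interferon regulatory factor, 78.1 to 151 CPM and 3.48 to 13.6 CPM (-3.54, SE 0.379), and Oasl2 142 to 191 CPM and 10.5 to 44.2 CPM (-2.45, SE 0.353). The bulk tumors differed among themselves here: the list summed to 181 CPM in the lowest and 792 CPM in the highest, and library 41 was the lowest for Oas2, Irf7 and Oasl2. None of the 13 mitochondrially encoded genes was called (median -0.29), among them mt-Atp6 with 895, 801, 1380 and 159 CPM in M-MDSC and 4300, 3960, 3020 and 2330 CPM in bulk tumor (2.07, adjusted p = 0.00304), which passed without M-MDSC library 24 (1.70, adjusted p = 0.000625).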

How the data were processed

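The authors deposited raw counts per gene, 1 column per library. According to their methods they mapped reads of rRNA-depleted, stranded total RNA libraries to mm10 with ContextMap and BWA and counted fragments by strand with featureCounts on a Gencode annotation. The submitters' processing notes name Subread 1.4.6-p3, BWA, featureCounts and GRCm38. No molecular identifiers were described, so intervals cover counting error only. Columns were assigned to groups by cell, organ and treatment in their names, and 0 columns were left unassigned. Symbols, exon lengths and positions (GRCm38) were taken from GENCODE M21.

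Genes averaging 25 counts or more in these 8 libraries were fitted with edgeR 4.0.16 in R 4.3.3 (TMM, robust quasi-likelihood test, only the 2 groups compared, no covariate), with Benjamini-Hochberg adjustment over 11022 genes. A call needed an adjusted p below 0.001 and a 2-fold difference. SE is the log2 fold change divided by the square root of F. No label or column name ties a column to a mouse, so the fit was unpaired and p-values measure the spread between libraries. Folds against a group with 0 counts are bounds against 3 counts over the group, and with 1 to 3 counts ratios carry an exact 95% interval. Named genes were the 12 furthest in either direction among called genes whose groups did not overlap and whose higher mean reached 100 CPM, members of 30 gene lists, and the sorting antigens. The comparison and the lists were chosen with earlier results of these data known. Alternatives included DESeq2 1.42.0, other scalings and filters, thinning to 793070 counts per library and leaving out each library. The script was tested on simulated data. Pairs of libraries within groups differed by 6.19 to 49.5 in chi-square per degree of freedom, and none was identical. A few genes of these lists and an allele of the line are not reported here.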

Additional observations from a re-analysis of the deposited data

Results flagged for a closer look

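In groups of 4 libraries, a value was set aside for a closer look where its gap to the nearest other value was a larger share of the group's range than Dixon's test allows at the 95% level, which chance gives in about 1 in 20 groups. Of 205 groups of 4 values examined for the genes named, 14 were. Bulk tumor library 42 stood high for Ccr2 (31.1 CPM against 12 to 14.4 CPM in the other bulk tumors), Klf4 (155 against 38.7 to 56.6 CPM), Cxcl5 (29.9 against 17.2 to 18.5 CPM), Lamc1 (376 against 299 to 304 CPM), S100a9 (4.52 against 0.645 to 0.942 CPM) and Ngp (7.53 against 0 to 0.314 CPM). Bulk tumor library 41 stood high for Col1a1 (473 against 318 to 330 CPM) and Twist1 (14.5 against 9.73 to 10 CPM).

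Among M-MDSC, library 24, the shallowest, stood high for Atf3 (1260 against 691 to 768 CPM) and Hsp90aa1 (2390 against 732 to 926 CPM) and low for Tnf (124 against 218 to 233 CPM). Library 8 stood high for Msln (11.8 against 0 to 1.77 CPM) and Muc1 (28.8 against 0 to 4.19 CPM) and low for Vegfa (373 against 771 to 810 CPM). The cause of these values was not tested.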

How the results depend on the processing

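No paired analysis was possible because the columns carry only a running number that no label gives, although titles number the samples alike in both groups. The running numbers of both groups have gaps where the title numbers have them. A pairing inferred from this pattern alone was not tested, so its effect on the calls is unknown. The numbers of genes higher and lower in bulk tumor, 2457 and 2160, moved by over 1.5 times under few settings: to 1477 and 1341 when tested against a 2-fold difference with glmTreat, to 1285 and 1433 with at least 10 counts in every library, to 1120 and 1338 with counts thinned to the smallest library, and to 4325 higher genes without a filter on low counts. Leaving out 1 library gave 1974 to 2510 higher and 1697 to 2347 lower genes. DESeq2 called 3219 and 2278 genes, of which 2448 and 2100 were also called by edgeR. The share of called genes that were higher in bulk tumor, 53.2%, was 56.5% with RLE scaling, 60.1% with library totals and 60.6% with upper-quartile scaling, and it fell to 47.3% with at least 10 counts in every library and to 45.6% with thinned counts. The epithelial level in M-MDSC of 3.87% ranged from 2.96 to 4.42 when 1 library was left out, and the matrix level of 103% from 97.4 to 111, whereas the median over matrix genes was 1.15%. No log2 fold change of a named gene changed sign under the alternatives run.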
